A study of Oryza sativa with 6 samples.

Results

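The genes described here are the histone, cyclin and DNA replication genes of rice leaf, 155 of the 35018 gene rows listed by the authors. A row was taken when its description contained core histone, histone H1, H2, H3 or H4, cyclin, MCM, DNA replication or DNA polymerase, with tetracycline transporters left out. They comprised 44 histones, 5 rows with a core histone domain but no histone entry in KEGG, 36 cyclins, 23 cyclin-dependent kinases (CDKs) with their inhibitors and regulatory subunit, 10 MCM genes, 20 DNA polymerase genes, 6 other DNA replication genes, 4 RNA-directed DNA polymerases and 7 rows that matched the letters of cyclin only. One of those 7 was a ribosome recycling factor, LOC_Os04g41300.

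Leaf RNA was sequenced from 2 groups of 3 samples, both of CA21, a non-transgenic glyphosate-tolerant rice line obtained by irradiation and EMS mutagenesis and then crossing. GLY plants were sprayed at the third-leaf stage with glyphosate, an inhibitor of the aromatic amino acid pathway, at 2 mg ml-1, and CK plants received no treatment. Leaves were taken after all plants of a sensitive line treated alongside had died, so the comparison is of whole tolerant leaves at that single time. Each value below is FPKM, a fragment count scaled by transcript length and by mapped depth, and the values of a group are in the order of replicates 1, 2 and 3. The sources do not say that the replicates came from separate plants or bowls, so the p-values measure the spread between these samples only.

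Histones H2A, H2B, H3 and H4 form the core of the nucleosome, and H1 binds the linker DNA between nucleosomes. Most histone genes are transcribed chiefly in S phase, when new chromatin is assembled, while variant genes are also used outside it. Cyclins activate CDKs at set points of the cycle, the MCM complex is the replicative helicase, and DNA polymerases alpha, delta and epsilon copy the genome. In a grass leaf, cell division is restricted to the base of growing blades and to the shoot apex. The genes were chosen as a possible readout of cell division, but not every row serves it. Whether their levels followed cell division in these leaves was not tested.

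The libraries held 3.84 to 4.40 Gb of mapped bases in GLY and 3.43 to 3.80 Gb in CK. Log-scale gene values correlated between replicates at 0.888 to 0.899 in GLY and 0.908 to 0.911 in CK. The 36 rows of leaf mesophyll markers (chlorophyll a-b binding proteins, the small subunit of Rubisco and photosystem proteins) summed to 45719 to 55236 FPKM in GLY and 69539 to 73229 FPKM in CK, and 11 of the 35 tested fell while 2 rose. The 5 knotted-1 homeobox rows, matched by description to look for shoot meristem, summed to 76.0 to 79.8 FPKM in GLY and 76.7 to 82.1 FPKM in CK, and none of the 3 tested was called by limma at the adjusted or the unadjusted threshold of 0.05. Nearly all of that sum came from LOC_Os06g43860 and LOC_Os02g08544, so the sum is in effect the level of those 2 genes. Whether those 2 genes mark meristem in these leaves was not tested. The other 3 rows were at most 1.45 FPKM, and 1 row was at 0 in all GLY libraries and none in all CK libraries. Vascular markers, 50 rows, summed to 74.8 to 78.8 FPKM in GLY and 39.4 to 48.7 FPKM in CK, with 8 of 18 tested called higher, and 22 senescence rows summed to 56.1 to 60.5 FPKM in GLY and 40.7 to 43.5 FPKM in CK, with 3 of 12 called higher. For comparison, 19.3% of all genes tested were called higher and 5.65% lower. The part of these marker differences in the results below was not tested, and in whole leaves fewer cells of a type and less RNA per cell cannot be told apart.

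Histone transcripts were lower in GLY leaves, whereas the other genes tested were called about as often as all genes, with 9 of 53 called higher (17.0%) and 3 called lower (5.66%). The B-type cyclins were under 1 FPKM in every library. Of the 155 genes, 86 had a mean of at least 0.5 FPKM and were tested, and of these 21 fell and 10 rose at an adjusted p under 0.05 (limma on log2(FPKM + 1), adjusted over 19316 genes). Over all genes tested, 5.65% fell and 19.3% rose. The histones H1 to H4 accounted for 18 of the 21 genes that fell and for 1 of the 10 that rose. By the threshold of the study's methods, an absolute log2 fold change no smaller than 1 with P under 0.05 before adjustment, 14 genes were lower and 3 were higher, against 2.40% lower and 6.58% higher among all genes. The study applied that threshold to DESeq results and it is applied here to the limma fit, so these are not the study's own counts. With the library-size covariate of Ballgown, which correlated with the groups at 0.988, no gene of any kind was called at an adjusted p under 0.05 (1298 of all genes had an unadjusted p under 0.05, among them 3 higher and 4 lower of the 86 tested here), and 25 of the 33 tested histones had a log2 fold change below 0, against 29 without it.

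The balance of higher and lower calls depended on the scaling. The median log2 fold change of all genes was 0.20 as deposited, with 3725 genes called higher and 1091 lower. After division by median-of-ratios factors it was -0.00, with 1975 called higher and 1875 lower. Among the 155 genes the calls were then 6 higher and 26 lower. Read against the median of all genes, the tested histones had a median log2 fold change of -1.16 as deposited and of -1.15 after that rescaling, and the other tested genes had -0.00 and 0.02.

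**Figure D1:**
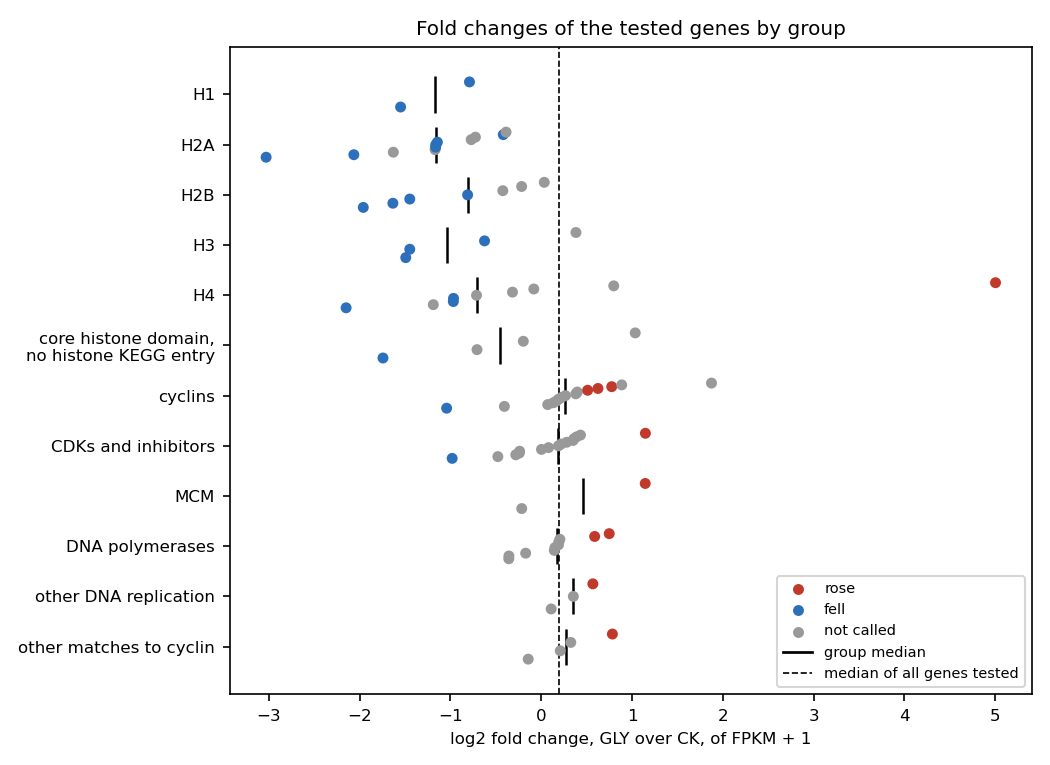
Log2 fold change of each tested gene (GLY over CK, on FPKM + 1) by gene group. Each point is 1 gene, coloured by its call, with the group median as a bar and the median of all genes tested as a dashed line at 0.20. The histone groups lie mostly left of 0 and the other groups around the dashed line, with 1 H4 gene at 5.0.

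The summed level of the 44 histone genes was 1426, 1379 and 1237 FPKM in GLY leaves, against 3245, 2946 and 3262 FPKM in CK leaves. The means were 1348 ± 98.6 FPKM in GLY and 3151 ± 178 FPKM in CK (SD, n = 3 each), so that the sum in CK was 2.34-fold that in GLY and every GLY library lay below every CK library. As a share of the FPKM of all rows, histones took 0.252% in GLY and 0.546% in CK. Each of the 5 histone types was lower in GLY without overlap between libraries. The H1 sum was 622, 590 and 523 FPKM in GLY and 1470, 1381 and 1545 FPKM in CK. The H3 sum was 499, 503 and 482 FPKM in GLY and 1087, 1041 and 1089 FPKM in CK. The smaller H2A, H2B and H4 sums were 92.1, 96.0 and 86.9 FPKM on average in GLY and 208, 269 and 136 FPKM in CK.

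**Figure D2:**
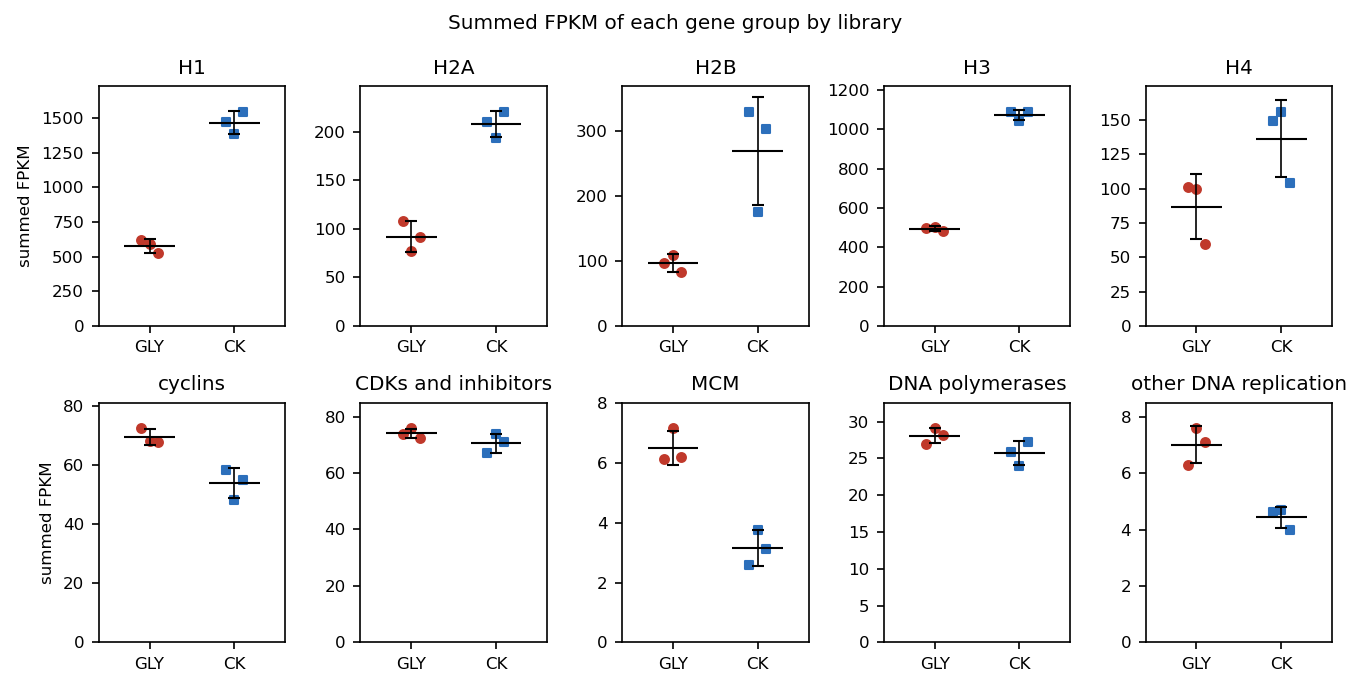
Summed FPKM of each gene group in each library, with all panels starting at 0. Points are libraries, and bars give the mean and SD of 3 libraries per group. The 5 histone sums lie lower in GLY without overlap, and the H2B sum of CK2 (175 FPKM) includes a gene listed at 0 in that library only. The cyclin, MCM and other DNA replication sums lie higher in GLY without overlap, and the CDK and DNA polymerase sums overlap.

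A set of 4 genes carried most of the histone RNA, with 79.1% of histone FPKM in GLY and 80.0% in CK, and all 4 fell. LOC_Os04g18090, an H1 gene on chromosome 4 (9993501 to 9994514, plus strand; coordinates of the deposited transcript table, and the study's methods name IRGSP build 5.0), was the most abundant. It had 407, 390 and 371 FPKM in GLY and 1159, 1051 and 1215 FPKM in CK, a log2 fold change of -1.55 (SE 0.083, adjusted p = 4.6e-04). It supplied 28.9% of histone FPKM in GLY and 36.2% in CK.

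The other 3 were the H3 genes LOC_Os06g04030 and LOC_Os03g27310 and the H1 gene LOC_Os06g04020. LOC_Os06g04030 had 235, 234 and 241 FPKM in GLY and 675, 632 and 696 FPKM in CK (log2 fold change -1.49, SE 0.069, adjusted p = 2.94e-04). LOC_Os03g27310 had 256, 262 and 235 FPKM in GLY and 396, 394 and 372 FPKM in CK (log2 fold change -0.62, SE 0.075, adjusted p = 0.0043). The groups stood well apart in both genes, but the share of histone FPKM from LOC_Os03g27310 was 18.6% in GLY and 12.3% in CK, while that of LOC_Os06g04030 was 17.6% in GLY and 21.2% in CK. In LOC_Os03g27310 nearly all of the level came from the transcript LOC_Os03g27310.1 (261, 268 and 242 FPKM in GLY, 405, 405 and 386 FPKM in CK), which also fell as a transcript (adjusted p = 0.0173). LOC_Os06g04020 had 215, 200 and 152 FPKM in GLY and 311, 330 and 331 FPKM in CK (log2 fold change -0.79, SE 0.14, adjusted p = 0.0131).

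Across the histone family 33 of 44 rows were tested, of which 18 fell, 1 rose and 14 were not called. Their median log2 fold change was -0.97, and 29 of the 33 were below 0. Without a filter on low values the median of all 44 rows was -0.67, with 34 below 0 and 18 called lower. In 22 of the 33 every GLY library lay below every CK library, against 10.6% of all genes tested, and in 1 every GLY library lay above, against 34.3%. By type, both H1 genes fell, as did 6 of 11 H2A, 4 of 7 H2B, 3 of 4 H3 and 3 of 9 H4 genes. All 4 histones with a mean of at least 100 FPKM fell, as did 8 of 14 between 10 and 100 FPKM and 6 of 15 below 10 FPKM. The 11 rows not tested comprised 7 of the 11 H3 rows, 2 H2A rows, 1 H2B row and 1 H4 row, and none exceeded 0.422 FPKM in any library.

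**Figure D3:**
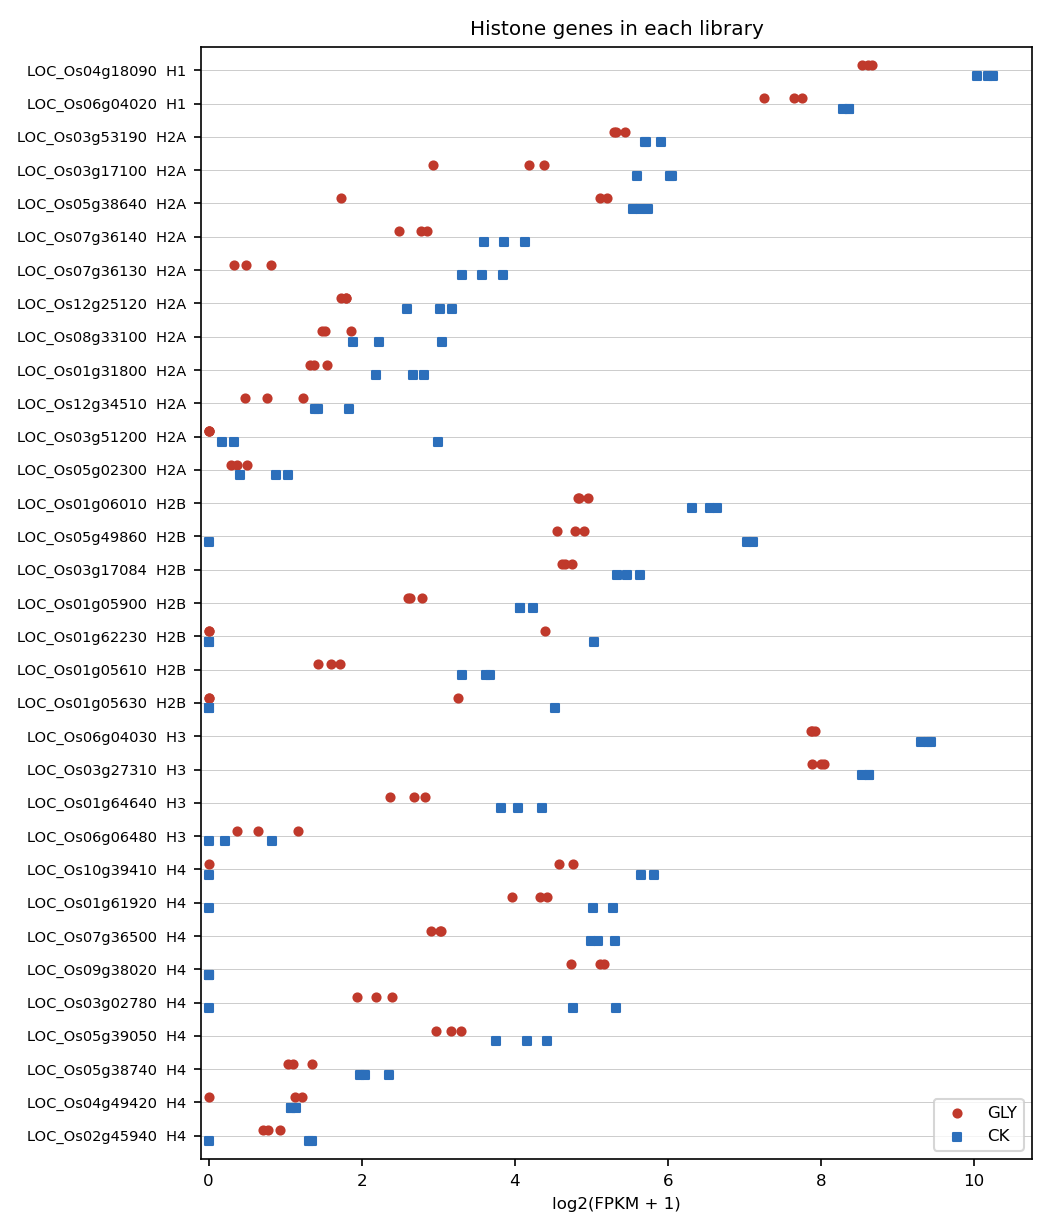
Level of the 33 tested histone genes in each library, as log2(FPKM + 1), ordered by type and mean level. Red circles are the 3 GLY libraries and blue squares the 3 CK libraries. In 22 genes every circle lies left of every square, while several single genes have 1 library at 0.

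Within H2A, which pairs with H2B in the nucleosome, the log2 fold changes of the 11 tested genes ran from -3.03 to -0.39. LOC_Os03g51200 passed the filter only through CK (0 in all GLY libraries and 0.129, 0.256 and 7.00 FPKM in CK), and without a filter 12 of the 13 H2A rows were below 0. LOC_Os07g36130 on chromosome 7 (21589968 to 21590651, plus strand) had the lowest log2 fold change of any tested histone and passed the filter only through CK. It had 0.761, 0.399 and 0.264 FPKM in GLY and 10.9, 8.93 and 13.3 FPKM in CK, a log2 fold change of -3.03 (SE 0.19, adjusted p = 6.84e-04). The ratio of the CK mean to the GLY mean was 23.3, so the log2 fold change on FPKM + 1 understates the difference of a gene this low in GLY. Its neighbour LOC_Os07g36140, another H2A gene 1996 bases away on the same strand, had 6.20, 5.83 and 4.61 FPKM in GLY and 13.5, 11.2 and 16.5 FPKM in CK (log2 fold change -1.16, SE 0.17, adjusted p = 0.00749). Both neighbours fell, by different amounts.

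LOC_Os03g17100 (H2A) had 19.8, 17.1 and 6.65 FPKM in GLY and 65.5, 47.4 and 64.4 FPKM in CK (log2 fold change -2.06, SE 0.40, adjusted p = 0.0169). GLY3 was the lowest of its libraries, and the call was lost without CK1 and without CK3. The H2A genes LOC_Os12g25120 and LOC_Os01g31800 were lower at 1.5 to 2.48 FPKM in GLY and 3.54 to 8.10 FPKM in CK, with log2 fold changes of -1.16 and -1.14 (adjusted p = 0.00666 and 0.00988). The most abundant H2A gene on average, LOC_Os03g53190, changed least of those that fell, with 38.5, 42.6 and 39.1 FPKM in GLY and 51.6, 59.0 and 51.1 FPKM in CK (log2 fold change -0.42, SE 0.094, adjusted p = 0.0263). Its call was lost in 4 of the 6 fits without 1 library, those without CK1, CK2, GLY1 or GLY3.

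Another abundant H2A gene, LOC_Os05g38640, was not called, and its GLY2 value stood apart. It had 35.8, 2.32 and 33.5 FPKM in GLY and 45.9, 52.5 and 48.6 FPKM in CK (log2 fold change -1.63, SE 0.95, adjusted p = 0.264). It was called only in the fit without GLY2. The remaining H2A genes were at most 7.32 FPKM and not called, among them LOC_Os05g02300, whose libraries overlapped at 0.415, 0.223 and 0.296 FPKM in GLY and 0.329, 0.836 and 1.05 FPKM in CK. LOC_Os05g02300 passed the filter only through CK.

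Among the H2B genes LOC_Os01g06010 had 27.3, 30.1 and 27.8 FPKM in GLY and 93.2, 78.8 and 99.2 FPKM in CK, a log2 fold change of -1.63 (SE 0.11, adjusted p = 8.66e-04). LOC_Os01g05900 had 5.07, 5.20 and 5.94 FPKM in GLY and 15.8, 15.8 and 17.8 FPKM in CK (log2 fold change -1.45, SE 0.10, adjusted p = 9e-04). LOC_Os01g05610 had 2.02, 1.68 and 2.30 FPKM in GLY and 11.8, 8.92 and 11.4 FPKM in CK (log2 fold change -1.96, SE 0.14, adjusted p = 0.00105). In all 3 the GLY libraries were close together and far below CK. The row of LOC_Os03g17084, an H2B gene of 4 exons as annotated, fell by 0.81 on the log2 scale (SE 0.11, adjusted p = 0.00521). It had 24.3, 25.9 and 23.5 FPKM in GLY and 48.9, 39.3 and 43.5 FPKM in CK. Most of that level was given to assembled transcripts. The annotated transcript was at most 0.826 FPKM in GLY and 1.74 FPKM in CK, and no transcript of the row was called. LOC_Os03g17084 lies 1405 bases from the H2A gene LOC_Os03g17100 on chromosome 3, on the opposite strand, and both gene rows of this H2B and H2A pair fell.

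A second mixed pair was on chromosome 6, where the H1 gene LOC_Os06g04020 and the H3 gene LOC_Os06g04030, both among the 4 most abundant, lie 1613 bases apart on the minus strand. Including the pair of H2A genes on chromosome 7, the 3 closest histone pairs in the table had all 6 genes called lower, while 18 of all 33 tested histones fell. In the next closest pairs, with gaps of 5443, 6916 and 11355 bases, only LOC_Os01g05610 was called lower. The other genes of those pairs were not called or not tested.

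The H3 genes divided into a few abundant rows and many silent ones. Besides LOC_Os06g04030 and LOC_Os03g27310, only the single-exon gene LOC_Os01g64640 fell, with 6.13, 5.41 and 4.15 FPKM in GLY and 15.4, 13.2 and 19.5 FPKM in CK (log2 fold change -1.45, SE 0.19, adjusted p = 0.005). LOC_Os06g06480 was low and its libraries overlapped, with 1.25, 0.566 and 0.294 FPKM in GLY and 0, 0.158 and 0.777 FPKM in CK (adjusted p = 0.414). It passed the filter only through GLY.

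The H4 genes were the only histones with a member called in the opposite direction. LOC_Os07g36500 had 7.14, 7.18 and 6.47 FPKM in GLY and 33.0, 31.0 and 38.8 FPKM in CK, a log2 fold change of -2.15 (SE 0.11, adjusted p = 4.14e-04). LOC_Os05g38740 and LOC_Os05g39050 each fell by 0.97 on the log2 scale (adjusted p = 0.00862 and 0.0193), and the call of LOC_Os05g39050 was lost without CK1, GLY2 or GLY3. LOC_Os09g38020 on chromosome 9 (21911963 to 21912683, minus strand, 1 exon) had 33.6, 34.8 and 25.7 FPKM in GLY and was listed at 0 in CK1, CK2 and CK3. It passed the filter only through GLY and rose, with an adjusted p of 6.32e-05. Its fitted log2 fold change of 5.0 depends on the added 1 FPKM and is not a bound, since a listed 0 can also be a failed estimate.

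The H4 sum without LOC_Os09g38020 was 67.6, 65.2 and 33.9 FPKM in GLY and 149, 156 and 104 FPKM in CK, so the fold of CK over GLY was 2.45 without the gene and 1.57 with it. Histone genes of 1 type are closely similar in coding sequence, so reads may be split between copies in the authors' estimates, and the level of any single copy is less certain than the sum of its type.

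Zeros in single libraries affected 5 of the 155 genes. A 0 was counted as isolated when both other libraries of the group had at least 5 FPKM, and each library held 45 to 60 such values among all genes tested. LOC_Os05g49860 (H2B) had 28.9, 26.7 and 22.5 FPKM in GLY and 137, 0 and 130 FPKM in CK. With all 6 values its log2 fold change was 0.03 (adjusted p = 0.993), and with the 0 of CK2 left out it was -2.32 (adjusted p = 8.64e-04). The 3 H4 genes affected were also not called with all values, and all 3 were called lower once isolated zeros were left out. LOC_Os03g02780 had 4.29, 3.54 and 2.83 FPKM in GLY and 39.2, 26.1 and 0 FPKM in CK (log2 fold change -2.87 without the zero). LOC_Os10g39410 had 26.0, 22.9 and 0 FPKM in GLY and 55.5, 49.3 and 0 FPKM in CK (log2 fold change -1.07). LOC_Os01g61920 had 19.1, 20.4 and 14.6 FPKM in GLY and 0, 31.6 and 38.0 FPKM in CK (log2 fold change -0.92).

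This alternative was chosen after the data were seen, and under it 22 of 33 histones fell. All 4 histones with an isolated zero had 1 exon. Of the 15 tested histones with 1 exon, 9 were at 0 in at least 1 library, against 2 of 18 with more exons. The 2 H2B genes, LOC_Os01g62230 and LOC_Os01g05630, were above 0 in only 1 library of each group.

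The 5 core histone domain rows without a histone entry in KEGG were mixed. LOC_Os08g38300, annotated to the nucleosome, had 1.77, 3.06 and 0.942 FPKM in GLY and 7.56, 8.24 and 9.36 FPKM in CK and fell (log2 fold change -1.74, SE 0.27, adjusted p = 0.00908). LOC_Os03g14669, LOC_Os06g45640 and LOC_Os08g38780, which the table annotates to sequence-specific DNA binding rather than to the nucleosome, were not called. LOC_Os03g14669 had 14.5, 14.5 and 15.2 FPKM in GLY and 8.49, 10.8 and 51.6 FPKM in CK. CK3 set its direction, since the log2 fold change was -0.20 with it and 0.57 without it (adjusted p = 0.0462). LOC_Os08g38780 was above 0 in GLY2 only, at 7.62 FPKM.

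The cyclins, which activate CDKs, were mostly low. Of the 36 genes, 23 stayed under 1 FPKM in every library and 15 were tested, of which 3 rose, 1 fell and 11 were not called, shares of 20.0% and 6.67% that lie near those of all genes (19.3% and 5.65%). The summed level of all 36 was 72.6, 68.3 and 68.0 FPKM in GLY and 58.6, 48.4 and 55.1 FPKM in CK. Most of that gap came from LOC_Os07g12780, described below, and without it the sums were 54.8, 51.5 and 53.2 FPKM in GLY and 49.2, 48.4 and 45.7 FPKM in CK. The B-type cyclins, which act in mitosis, were nearly absent, since none of the 6 passed the filter and the highest value of any was 0.415 FPKM. Of the 9 A-type cyclins 2 passed, and neither was called. LOC_Os12g20324, described as cyclin-A1, had 7.98, 7.39 and 8.39 FPKM in GLY and 6.67, 6.34 and 6.21 FPKM in CK (log2 fold change 0.27, adjusted p = 0.0765).

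Those that rose were LOC_Os02g04010, LOC_Os03g52750 and LOC_Os07g37010. LOC_Os02g04010, a T-type cyclin of the kind that acts with transcriptional kinases, had 7.73, 8.51 and 6.61 FPKM in GLY and 4.53, 4.75 and 4.41 FPKM in CK (log2 fold change 0.63, SE 0.11, adjusted p = 0.0126). LOC_Os03g52750, an H-type cyclin, which partners the CDK-activating kinase, had 2.11, 2.46 and 2.47 FPKM in GLY and 1.28, 1.39 and 1.37 FPKM in CK (log2 fold change 0.51, SE 0.098, adjusted p = 0.016). LOC_Os07g37010, given only as a cyclin, had 1.45, 1.32 and 1.38 FPKM in GLY and 0.312, 0.690 and 0.208 FPKM in CK (log2 fold change 0.78, SE 0.16, adjusted p = 0.0212). LOC_Os07g37010 passed the filter only through GLY. The groups did not overlap in any of the 3, with GLY means 1.67, 1.74 and 3.42 times the CK means. Among all genes tested, 34.3% had every GLY library above every CK library, and these 3 were picked by their adjusted p. The call of LOC_Os07g37010 was lost in 5 of the 6 fits without 1 library (all but that without CK2) and that of LOC_Os03g52750 in the fits without CK1 and without GLY2. After median-of-ratios scaling neither LOC_Os02g04010 nor LOC_Os03g52750 was called.

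LOC_Os02g43550, given only as a cyclin, was the 1 cyclin that fell, with 4.01, 2.85 and 3.06 FPKM in GLY and 9.37, 8.18 and 6.17 FPKM in CK (log2 fold change -1.04, SE 0.18, adjusted p = 0.0116). LOC_Os07g12780, the most abundant row described as a cyclin but annotated to a receptor kinase term, had 17.8, 16.8 and 14.9 FPKM in GLY and 9.33, 0 and 9.39 FPKM in CK. It was not called (adjusted p = 0.20), and was called higher with the 0 of CK2 left out (log2 fold change 0.75, adjusted p = 0.0116).

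Of the 23 CDK genes 15 were tested, with 1 called higher and 1 lower. Each is a share of 6.67%, against 19.3% of all genes called higher and 5.65% called lower. The inhibitor LOC_Os02g52480, of a class that binds and blocks CDK and cyclin complexes, rose. It had 9.74, 9.39 and 9.10 FPKM in GLY and 2.84, 3.11 and 5.57 FPKM in CK, a log2 fold change of 1.15 (SE 0.22, adjusted p = 0.0155), and the call was lost without GLY1 and without GLY2. The other inhibitor tested, LOC_Os10g33310, had 4.48, 6.27 and 4.74 FPKM in GLY and 3.12, 3.70 and 3.80 FPKM in CK and was not called (adjusted p = 0.0765). LOC_Os06g22820, described as CDK F-1, a class known in Arabidopsis to phosphorylate other CDKs, fell, with 3.77, 3.16 and 4.57 FPKM in GLY and 9.14, 8.12 and 8.16 FPKM in CK (log2 fold change -0.98, SE 0.13, adjusted p = 0.00569).

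The core CDKs were not called. LOC_Os03g02680, a CDK A-1 row, had 5.36, 5.42 and 4.59 FPKM in GLY and 5.76, 6.86 and 6.08 FPKM in CK (log2 fold change -0.24, adjusted p = 0.159), a difference without overlap that was called lower only after median-of-ratios scaling. LOC_Os01g67160, a CDK B1-1 row of the plant-specific class used around mitosis, had 2.15, 1.81 and 1.06 FPKM in GLY and 3.76, 2.32 and 1.05 FPKM in CK, with overlapping libraries (adjusted p = 0.588). The CDK G-2 row LOC_Os04g41100 was the most abundant at 13.2, 14.9 and 14.0 FPKM in GLY and 11.9, 12.2 and 12.3 FPKM in CK. Its log2 fold change was 0.19 as deposited and -0.08 after median-of-ratios scaling, and neither was called.

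Of the 36 MCM, DNA polymerase and other DNA replication genes, 22 (61.1%) stayed under 1 FPKM in every library, against 32.4% of all rows. All 6 subunits MCM2 to MCM7 of the replicative helicase were below the filter, and together they summed to 0.770, 0.873 and 0.551 FPKM in GLY and 0.393, 0.458 and 0.461 FPKM in CK. MCM2, LOC_Os11g29380, supplied most of that sum with 0.733, 0.810 and 0.537 FPKM in GLY and 0.214, 0.257 and 0.288 FPKM in CK. Its GLY libraries lay above its CK libraries, but it was just under the filter and was not called without a filter either. The transcripts of MCM3 to MCM7 had at most 0.338 reads per base in any library. MCM6 and MCM7 were lower in GLY without overlap, but at levels near 0 in both groups. MCM6, LOC_Os05g14590, was at 0 in all GLY libraries and at 0.059, 0.027 and 0.027 FPKM in CK. It was not called without a filter (adjusted p = 0.246). MCM7, LOC_Os12g37400, was at 0.0369, 0.0128 and 0.0140 FPKM in GLY and 0.0897, 0.0570 and 0.0876 FPKM in CK, and was not called without a filter (adjusted p = 0.159).

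**Figure D4:**
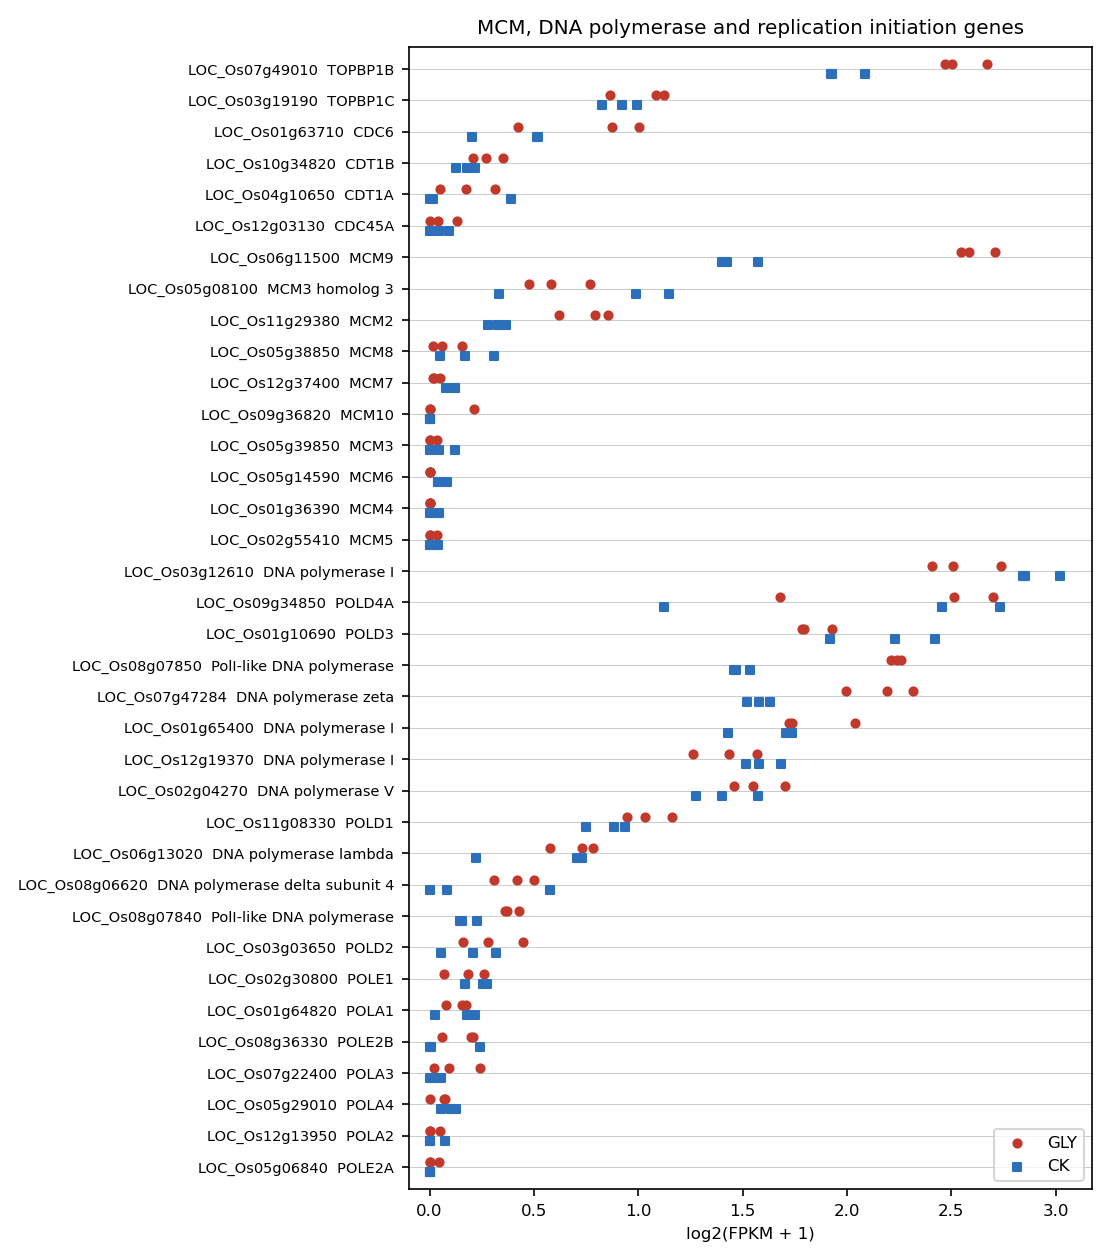
Level of the 36 MCM, DNA polymerase and other DNA replication genes in each library, as log2(FPKM + 1), with red circles for GLY and blue squares for CK. Of these genes, 22 lie under 1 FPKM in every library, including MCM2 to MCM7 and all alpha and epsilon polymerase subunits. MCM9 lies higher in GLY without overlap.

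One MCM family member stood apart. MCM9, LOC_Os06g11500 on chromosome 6 (6086289 to 6097662, minus strand, 22 exons), is not a subunit of the MCM2 to MCM7 ring and in animals acts in meiotic recombination and repair. It had 4.84, 5.54 and 4.997 FPKM in GLY and 1.69, 1.98 and 1.64 FPKM in CK, a log2 fold change of 1.15 (SE 0.10, adjusted p = 0.00174). The gene row was called but none of its 4 transcripts was. Single libraries gave most of the level to different transcripts, as with the assembled transcript MSTRG.20002.3 at 4.55, 0 and 3.53 FPKM in GLY and 0.0683, 1.53 and 0.932 FPKM in CK. The MCM3 homolog LOC_Os05g08100 had 0.498, 0.705 and 0.389 FPKM in GLY and 0.261, 1.21 and 0.984 FPKM in CK and was not called (adjusted p = 0.565).

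Of the 20 DNA polymerase genes 10 were tested, and 2 rose, the share of all genes that rose being 19.3%. LOC_Os08g07850, a PolI-like polymerase of the family that in plants copies organelle DNA, had 3.63, 3.79 and 3.73 FPKM in GLY and 1.90, 1.75 and 1.77 FPKM in CK (log2 fold change 0.75, SE 0.084, adjusted p = 0.00355). The row of LOC_Os07g47284, catalytic subunit of the translesion polymerase zeta, had 2.99, 3.56 and 3.97 FPKM in GLY and 1.99, 1.87 and 2.09 FPKM in CK (log2 fold change 0.59, SE 0.11, adjusted p = 0.0169). That row joins 2 loci, and its call was lost after median-of-ratios scaling and without CK1, CK2 or GLY2. As a group the 10 had a median log2 fold change of 0.17 as deposited and -0.01 after median-of-ratios scaling, where 1 was called higher and 2 lower.

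The nuclear replicative polymerases gave no call. The delta catalytic subunit POLD1, LOC_Os11g08330, had 0.929, 1.24 and 1.05 FPKM in GLY and 0.914, 0.680 and 0.847 FPKM in CK (adjusted p = 0.312). POLD3, LOC_Os01g10690, had 2.80, 2.44 and 2.47 FPKM in GLY and 3.69, 4.37 and 2.78 FPKM in CK (log2 fold change -0.36, adjusted p = 0.142). The most abundant polymerase was the DNA polymerase I gene LOC_Os03g12610, which is not an alpha, delta or epsilon polymerase. It had 4.68, 4.30 and 5.68 FPKM in GLY and 6.22, 7.12 and 6.18 FPKM in CK (log2 fold change -0.36, adjusted p = 0.0862). POLD3 and LOC_Os03g12610 were the polymerases called lower after median-of-ratios scaling.

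Of the other DNA replication genes, TOPBP1B, LOC_Os07g49010, named for a protein of replication and checkpoint signalling, had 4.67, 5.37 and 4.54 FPKM in GLY and 3.24, 2.80 and 2.80 FPKM in CK. It rose (log2 fold change 0.57, SE 0.10, adjusted p = 0.0136) but not after median-of-ratios scaling. TOPBP1C, LOC_Os03g19190, had overlapping libraries with a log2 fold change of 0.11 (-0.03 after median-of-ratios scaling). CDC6, LOC_Os01g63710, which loads the MCM complex, had 0.341, 0.833 and 1.01 FPKM in GLY and 0.435, 0.428 and 0.151 FPKM in CK (adjusted p = 0.268). It passed the filter only through GLY. CDT1A, CDT1B and CDC45A were under the filter at no more than 0.309 FPKM, and the 4 RNA-directed DNA polymerases did not pass it.

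Among the 7 rows matched by letters only, 4 were tested and LOC_Os03g19520, a cyclin-related protein, rose. It had 3.12, 2.83 and 2.63 FPKM in GLY and 1.21, 1.09 and 1.43 FPKM in CK (log2 fold change 0.78, SE 0.11, adjusted p = 0.00615). LOC_Os02g37880, a cyclin G-associated kinase, was the most abundant at 16.9, 19.5 and 16.6 FPKM in GLY and 19.7, 20.3 and 18.7 FPKM in CK and was not called.

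The transcript table held 241 transcripts of these genes, of which 129 were tested, 18 fell and 1 rose (limma, adjusted over 32646 transcripts). Over all transcripts tested, 1.79% fell and 4.40% rose. The transcripts that fell were of H1 (2), H2A (5), H2B (3), H3 (3) and H4 (2) genes, with 1 of LOC_Os08g38300, 1 of LOC_Os06g22820 and 1 of LOC_Os02g43550. The transcript that rose was that of LOC_Os09g38020. All 19 were annotated transcripts, and none of the 37 assembled transcripts tested was called. No transcript of the 9 genes outside the histones that rose as gene rows was itself called. The count of transcripts that fell was 7 without CK1 or without GLY1, and 8 without CK3 or without GLY2.

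A further 141 genes of cell division and DNA synthesis, such as E2F factors, replication factor C, PCNA, kinesins and tubulins, were matched by description to show the rest of the pathway. Of these 80 were tested, 18 rose and 5 fell, shares of 22.5% and 6.25% that lie near those of all genes (19.3% and 5.65%), and their median log2 fold change was 0.30 against 0.20. After median-of-ratios scaling 13 rose and 7 fell. Kinesins (9 rose and 2 fell of 20 tested) and tubulins with their folding cofactors (6 rose and 1 fell of 18 tested) supplied most of the calls, and both serve the cytoskeleton of non-dividing cells as well as the spindle. With median-of-ratios scaling 7 kinesins and 4 tubulin rows rose, and with the library-size covariate described in the processing the kinesin median was -0.00 and the tubulin median 1.11, against 0.41 and 0.35 without it.

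The PCNA, replication factor C, ribonucleotide reductase and retinoblastoma rows gave no call. The sliding clamp PCNA, LOC_Os02g56130, had 4.38, 3.44 and 4.12 FPKM in GLY and 3.08, 4.35 and 1.28 FPKM in CK (adjusted p = 0.371), and the 4 replication factor C subunits were not called. The large subunits of ribonucleotide reductase, LOC_Os02g56100 and LOC_Os06g07210, which make deoxynucleotides, stayed at or below 0.282 FPKM. Of the 4 ribonucleotide reductase rows only 1 was tested, and it had a log2 fold change of -0.76 without being called. The retinoblastoma-related row LOC_Os11g32900, named for the repressor of S-phase entry, had 6.57, 7.09 and 6.47 FPKM in GLY and 8.13, 8.44 and 7.39 FPKM in CK (adjusted p = 0.136).

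Of the list, 6 genes rose and 1 fell past a log2 fold change of 1. LOC_Os10g35770, described only as E2F-related, had 71.7, 108 and 88.6 FPKM in GLY and 20.0, 23.7 and 19.1 FPKM in CK (log2 fold change 2.03, adjusted p = 0.00158), and none of the other 10 tested E2F rows was called. The tubulin rows LOC_Os11g14220 (42.3, 42.8 and 41.6 FPKM in GLY, 18.9, 21.5 and 17.6 FPKM in CK) and LOC_Os01g18050 had log2 fold changes of 1.10 and 1.26. The kinesin rows LOC_Os01g43580 and LOC_Os02g43050 had 1.27 and 1.10, and the kinesin LOC_Os04g45580, named after its value was seen, had 1.08. The 1 that fell was LOC_Os03g19059, subunit 11 of the anaphase-promoting complex, which marks mitotic proteins for degradation. It had 0.0550, 0.0800 and 0.649 FPKM in GLY and 2.84, 3.39 and 2.92 FPKM in CK (log2 fold change -1.71, SE 0.20, adjusted p = 0.00417), and passed the filter only through CK. Another row described as subunit 11, LOC_Os02g47870, was far more abundant and was not called (log2 fold change -0.21, adjusted p = 0.306). Its libraries overlapped, at 26.5, 19.3 and 22.7 FPKM in GLY and 28.6, 24.4 and 26.3 FPKM in CK.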

How the data were processed

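The authors depleted ribosomal RNA, sequenced paired ends, aligned them to Nipponbare with TopHat2 and Bowtie 2, assembled transcripts with StringTie and estimated FPKM with Ballgown, and the deposited tables hold FPKM per gene and per transcript. Coverage per base, a signal not divided by depth, was deposited per transcript and used only for depth and for how well low transcripts were covered. Versions, strandedness and the handling of multiply mapped reads are not given in the sources used here. Mapped depth was recovered from the ratio of coverage to FPKM.

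GLY and CK were compared in R 4.3.3 with limma 3.58.1 (two-sided, trend) on log2(FPKM + 1), for rows with a mean of at least 0.5 FPKM, with Benjamini-Hochberg adjustment over all rows tested. Rose and fell mean adjusted p under 0.05. The code was tested on simulated data.

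Histone types and cyclin classes came from descriptions and KEGG entries. The members, lists and tests were chosen with earlier results of these data known. Genes named in full were those past a log2 fold change of 1 and adjusted p under 0.05, the most abundant, highest and lowest of each group, and a few others chosen after their values were seen. Alternatives were a pseudocount of 0.1, no filter, a mean of at least 1 FPKM, median-of-ratios scaling, Ballgown's library-size covariate in an unmoderated linear model, a replicate block, leaving out each library, annotated loci only and, added after seeing the data, leaving out isolated zeros. No sequences were at hand for the loci, so promoter motifs were not analysed here.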

Additional observations from a re-analysis of the deposited data

How the results depend on the processing

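The count of genes that fell (21) was 18 to 26 under every alternative but the library-size covariate, and leaving out each library gave 19 to 22. Histones that fell (18) were then 15 to 22, and 16 to 19 without each library. The median log2 fold change over the tested histones was then between -0.88 and -1.15 (29 of them tested at a mean of at least 1 FPKM). It was -0.67 over all 44 without a filter, and -1.37 over the tested histones with the library-size covariate. The count that rose (10) became 6 after median-of-ratios scaling, 5 under the replicate block and 6 to 10 without each library, lowest without GLY2. Genes past the fold threshold were 6 higher with a pseudocount of 0.1 and 1 higher with median-of-ratios scaling (3 in the report, 3 to 4 without each library), and 13 to 19 lower without each library. With annotated loci only no count moved past 1.5 times.

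The library-size covariate correlated with the groups at 0.988, so the 2 cannot be told apart. With it limma's moderation was not used, none of the members (0 rose, 0 fell), histones (0 fell), list genes (0 rose, 0 fell) or transcripts (0 rose, 0 fell) was called, 3 members were higher and 4 lower at an unadjusted p under 0.05, and 4 passed the fold threshold as lower. It called 0 of all genes, of which 1298 had an unadjusted p under 0.05. Of the 33 histones, 25 still had a log2 fold change below 0. It reversed the log2 fold change of LOC_Os03g12610 (0.33), LOC_Os05g02300 (1.97), LOC_Os05g49860 (-15.7), LOC_Os05g08100 (2.18), LOC_Os03g14669 (4.42), LOC_Os08g38780 (-5.06), LOC_Os07g12780 (-5.50), LOC_Os07g49010 (-0.38) and LOC_Os01g43580 (-0.17).

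Median-of-ratios scaling reversed LOC_Os05g49860 (-0.21), LOC_Os04g41100 (-0.076) and LOC_Os03g19190 (-0.03), none of them called. LOC_Os05g49860 was also reversed with isolated zeros left out (-2.32) and without CK2 or GLY1 (-2.32 and -0.04, in a range up to 1.23), LOC_Os10g39410 without CK1, CK2 or GLY3 (0.29, 0.20 and 0.84, in a range down to -2.62), and LOC_Os03g14669 without CK3 (0.57, in a range down to -0.66). The cause was not tested.

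For the cell division list, 18 rose and 5 fell. The replicate block gave 12 and 3, no filter 14 that rose, and leaving out each library 13 to 18 and 3 to 4, with 3 that fell without CK1, GLY1, GLY2 or GLY3. For transcripts, the 18 that fell were 11 with no filter, 2 with the replicate block and 7 to 12 without each library. The 1 that rose was 2 with a mean of at least 1 FPKM and 2 with isolated zeros left out, and 1 to 2 without each library.

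GLY and CK share replicate numbers, but same-numbered libraries did not deviate together (r of 0.00348, 0.00993 and 0.006 in genes), so the numbers were not taken as pairs. With the replicate block 23 of the 31 calls among the members were shared and 8 were lost.

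FPKM carries no counting error, 58 of the 155 genes were at 0 in at least 1 library and 74 stayed under 1 FPKM in every library, which limits what can be said of those genes.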
